A study of Mus musculus with 11 samples.

Results

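The regions described here are places where the transcription factors IRF4 and PU.1 were found at 10 genes of MHC class II antigen presentation: H2-Aa, H2-Ab1, H2-Eb1, H2-DMa, H2-DMb1, H2-DMb2, H2-Oa, H2-Ob, Cd74 and Ciita. They were chosen by distance: a peak belongs to the set when its position lies in 1 of these genes or within 20 kb of it on the mouse build mm9, and a peak near several of the genes was counted once. Peak positions of all 10 libraries less than 200 bp apart were merged into regions, which gave 93 regions at these genes out of 70542 in all. The 4 windows searched cover 361 kb, or 0.0136% of the genome. Of the 93 regions, 62 lie in the class II gene cluster, 19 at Ciita and 12 at Cd74.

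The study used ChIP-seq, in which an antibody recovers the DNA bound by a factor and the recovered fragments are sequenced, on resting mature B cells purified from the spleens of B1-8i mice on the 129 background. These mice carry a gene-targeted receptor specific for the hapten NP. The culture medium of every group held CD40L, the cytokines IL-4, IL-5 and IL-2, and the antigen NP-Ficoll at 0.01 ng/mL. The cells (0.5 M per mL) were taken on day 1, when activated, or on day 3, after differentiation towards plasma cells. Each day is represented by 3 libraries for IRF4 and 2 for PU.1, made with antibodies from Santa Cruz. Enrichment was taken over 1 input library, a pool of 2 preparations whose cells are labelled as peripheral or immature B cells, so neither day had an input of its own. No group without stimulation, without IRF4 or without PU.1 was among the samples. The lists record binding and not expression, so the labelled cell type was not checked by marker expression. In such bulk chromatin, fewer cells with a bound site and less binding per cell cannot be told apart, and at day 3 the share of cells that had become plasma cells is not recorded in the labels.

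MHC class II molecules show peptides from ingested proteins to helper T cells. An alpha and a beta chain (H2-Aa with H2-Ab1, or H2-Ea with H2-Eb1) assemble in the endoplasmic reticulum on the invariant chain Cd74, which blocks the peptide groove and steers the complex to endosomes. There the H2-DM proteins exchange the remaining invariant chain fragment for peptides, and H2-DO (H2-Oa with H2-Ob) holds H2-DM back in B cells. Transcription of these genes depends on Ciita, a coactivator that is recruited to the X and Y boxes of their promoters by the RFX complex, CREB and NF-Y. B cells express the whole set and plasma cells are known to shut it down together with Ciita. IRF4 binds DNA weakly alone; on an Ets-IRF composite element (EICE) it binds beside PU.1.

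The mm9 reference was searched for motifs, on both strands, in the 200 bp around each region. Whether the mice used carry the same bases at these places was not checked. The EICE was read as GGAA, any 2 bases, GAAA. The sequences that follow show the EICE with its flanks at places that differ in which factors were called. The first lies at chr17:34280100-34280159 (+ strand), just upstream of H2-DMb2, where IRF4 was called in all 6 libraries. The second lies at chr16:10488143-10488202 (+) in an intron of Ciita, with PU.1 in all 4 libraries and IRF4 in 1 of 6. The next ones (chr16:10499422-10499481, +, Ciita intron; chr17:34423620-34423679, -, in H2-Aa, overlapping an exon that is not coding; chr17:34299659-34299718, -, intergenic; chr16:10546649-10546708, -, an intron of Clec16a) had PU.1 in all 4 libraries and IRF4 in none. The EICE 9.8 kb beyond the H2-DMb1 start lay 93.5 bp from its region's centre, near the edge of the 200 bp searched. PU.1 enrichment at that region was 17.7 to 40.1. Capitals mark the EICE, and sequences from the - strand are printed as they read on that strand.
H2-DMb2, 0.138 kb upstream: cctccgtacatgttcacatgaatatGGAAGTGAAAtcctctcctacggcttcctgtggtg
Ciita, 8.0 kb into the gene: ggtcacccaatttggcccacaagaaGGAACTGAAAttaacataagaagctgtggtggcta
Ciita, 19.2 kb into the gene: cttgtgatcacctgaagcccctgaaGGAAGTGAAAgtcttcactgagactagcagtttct
H2-Aa, 1.1 kb into the gene: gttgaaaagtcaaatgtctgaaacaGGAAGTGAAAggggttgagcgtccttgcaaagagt
H2-DMb1, 9.8 kb beyond the start: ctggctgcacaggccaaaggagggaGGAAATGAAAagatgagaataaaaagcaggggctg
Ciita, 66.4 kb beyond the start: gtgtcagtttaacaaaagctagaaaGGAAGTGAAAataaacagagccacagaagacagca
The core GGAAGTGAAA stands both at H2-DMb2, with IRF4 in every library, and at 3 places where no IRF4 library had a peak.

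A second set of sequences shows IRF4 places without PU.1 and a class II promoter. At chr17:34316960-34317019 (-, intergenic) the capitals mark an interferon-stimulated response element (ISRE, read as GAAA, any 2 bases, GAAA), a site for a pair of IRF molecules. At chr17:34433772-34433836 (-, between H2-Aa and H2-Eb1) they mark an AP-1-IRF composite element (AICE, here TTTC, any 4 bases, TGA, any base, T, any base, A). At chr17:34442693-34442777 (+), just before the start of H2-Eb1, they mark the X box core (AAC, any base, GATG) and the Y box (TGATTGG), where PU.1 was called in all 4 libraries and IRF4 in none.
H2-DMb1, 26.96 kb beyond the start: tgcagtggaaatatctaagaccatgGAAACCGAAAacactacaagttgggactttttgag
H2-Aa, 9.0 kb upstream: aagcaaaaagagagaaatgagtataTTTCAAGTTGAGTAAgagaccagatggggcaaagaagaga
H2-Eb1, promoter: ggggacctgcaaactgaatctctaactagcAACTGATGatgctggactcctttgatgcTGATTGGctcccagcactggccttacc

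PU.1 had a peak in 81 of the 93 regions at these genes (87.1%) and IRF4 in 24 (25.8%), of which 12 had both. Over all 70542 regions the shares were 81.5% and 28.4%, so the class II genes lay near the genome in this respect. In the authors' group lists, which hold peaks of 1 library with a partner peak in another library of the same factor and day, PU.1 lay within 20 kb of all 10 genes on both days. Of all 22238 protein-coding genes, 52.2% had a PU.1 peak that near on day 1 and 54.4% on day 3. IRF4 lay near 7 of the 10 genes on day 1 and 5 on day 3, against 10% and 8.46% of all genes. H2-Ab1, H2-Ob and Ciita were without an IRF4 peak on both days, and H2-Aa and H2-Eb1 on day 3. The genes share peaks: 1 region upstream of H2-DMb2 counts for H2-DMa, H2-DMb1 and H2-DMb2, so the 10 genes are not 10 separate observations. With a window of 5 kb the IRF4 counts were 3 and 2, and without day 1 replicate 2 the day 1 count was 4. With the stronger 50% of each group list, 3 genes had IRF4 on day 1 and 5 on day 3, which turned the order of the days.

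**Figure D1:**
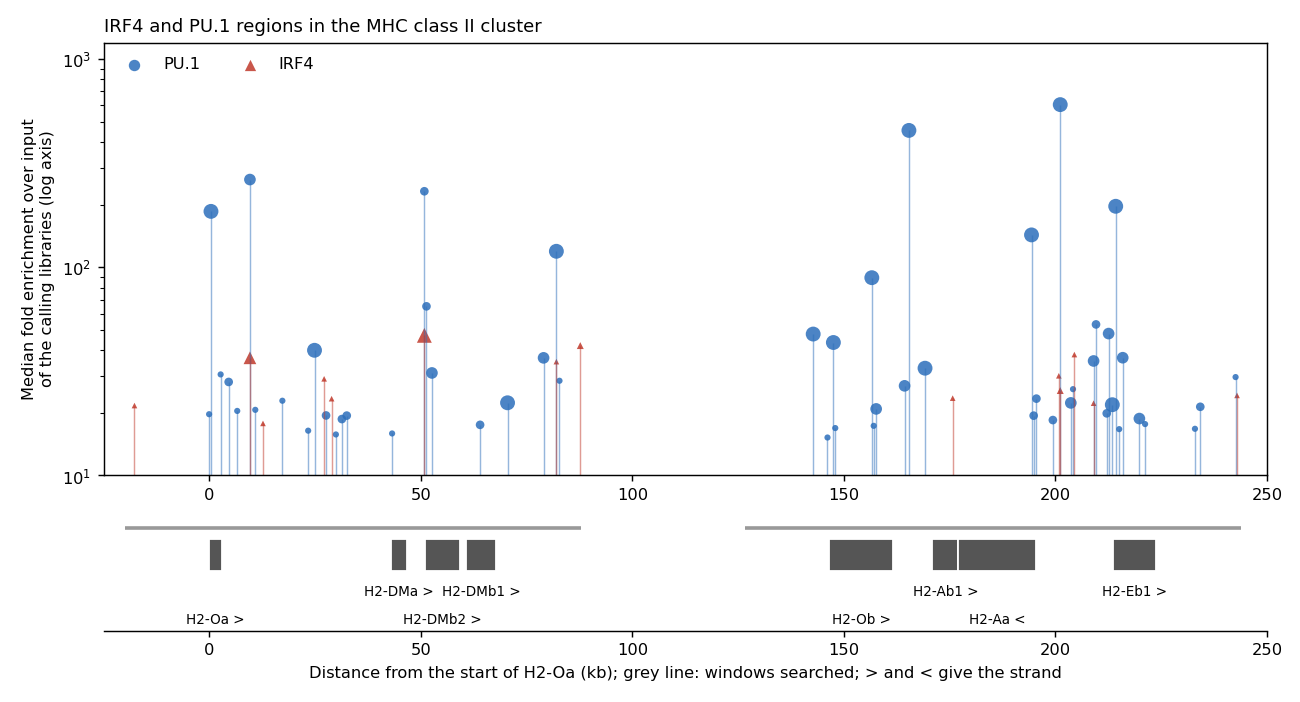
Regions along the class II cluster, by distance from the start of H2-Oa (kb), with the median fold enrichment over input among the libraries that called them on a log axis. Circles are PU.1 and triangles IRF4, larger markers stand for more libraries, boxes are the genes and grey lines the windows searched. The largest triangle is the region at H2-DMb2, and the highest circle is the region between H2-Aa and H2-Eb1, with a median PU.1 enrichment of 605.

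For IRF4, 3 of the 24 regions were called in all 6 libraries, 5 in 4 or more and 16 in 1 library alone. Over all 20030 IRF4 regions of the genome the shares were 1.46%, 6.69% and 79%. The 16 regions of 1 library had an enrichment of 17.6 to 38.1, with a median of 23.5. Of these, 13 came from day 1, 5 from replicate 2 and 8 from replicate 3, the libraries with the longest IRF4 lists (9326 and 8929 peaks against 825 in replicate 1). IRF4 was called on both days in 7 regions (29.2%), on day 1 alone in 14 (58.3%) and on day 3 alone in 3 (12.5%), against 14.8%, 65% and 20.2% of all IRF4 regions. All but 1 of the 17 regions of a single day were called in a single library. The exception lies between H2-Aa and H2-Eb1. The day 1 lists reach down to an enrichment of 20.9 to 21.9 and the day 3 lists to 15.0 to 16.9, so a weak peak could enter a day 3 list at a level that the day 1 lists do not hold. All enrichments here are the authors' fold over input and describe peaks within their own list.

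For PU.1, 27 of the 81 regions were called in all 4 libraries and 25 in 1. Over the genome 24.7% of the 57520 PU.1 regions were called in all 4, and the share called in 1 was not taken. A region called in both libraries of 1 day and in none of the other occurred 3 times in 81, against 6.16% over the genome. The 27 regions had median enrichments of 21.1 to 769. In 14 of them the median was over 100, and IRF4 was called in 1 or more libraries at 8 of these 14 (57.1%) and at 0 of the 13 weaker ones. Over the genome IRF4 was called at 52.9% of such PU.1 regions with a median over 100 and at 15.3% of the weaker ones. The 6 strong regions without any IRF4 peak lay at H2-Ab1, H2-Aa, H2-Eb1 and H2-Oa and, with 2 regions, at Ciita.

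The classical chains had strong PU.1 regions between the genes and little IRF4. The strongest lay 5.7 kb upstream of H2-Aa (chr17:34430438-34430927 in PU.1 day 1 replicate 1), towards H2-Eb1. On day 1 PU.1 enrichment there was 395 and 662, on day 3 it was 762 and 548, within the top 0.531% to 1.29% of each list. IRF4 was called there in day 1 replicates 2 and 3 (26.9 and 24.3) and in no day 3 library. The IRF4 position was 34430597 in replicate 2 and 34430442 in replicate 3, and the PU.1 positions were 34430659 to 34430679. The lower IRF4 position lay 218 bp from the PU.1 position of the region, and the other lay nearer. Day 1 replicate 1, whose list is the shortest, lacked the IRF4 peak as the day 3 libraries did.

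H2-Ab1 had its main region 5.5 kb upstream, in the stretch between H2-Ob and H2-Ab1. PU.1 enrichment was 363.5 and 612 in the day 1 libraries and 483 and 426 in those of day 3, and no IRF4 library had a peak. The IRF4 peak nearest to H2-Ab1 lay in its own intron, 4.9 kb from the start, in day 1 replicate 3 alone (23.5). Within H2-Aa, the region with an EICE 1.1 kb from the start had PU.1 at 69.0 and 161 on day 1 and 125 and 184 on day 3, again without IRF4. At the start of H2-Aa itself, 0.037 kb upstream and beside its Y box, PU.1 was called on day 3 in both libraries (15.1 and 31.7) and on day 1 in none. That is near the level at which the PU.1 lists end (14.9 to 15.1). A weak PU.1 region 0.615 kb into H2-Aa was called in day 1 replicate 1 (18.7) and day 3 replicate 2 (20.1).

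H2-Eb1 carried PU.1 at its promoter and inside the gene. The promoter region with the X box core and the Y box had enrichments of 18.7 and 23.9 (day 1) and 19.8 and 50.7 (day 3). The region 0.727 kb into the gene was higher in each library, at 108 and 297 on day 1 and 183 and 209.6 on day 3. A further region 0.95 kb upstream, whose centre falls on another Y box, was called in 3 of 4 PU.1 libraries (24.7 to 61.0). IRF4 was absent from these 3 regions in all 6 libraries, and the IRF4 peak nearest to the H2-Eb1 start lay 4.5 kb upstream in day 1 replicate 3 (22.2), where 3 PU.1 libraries also had a peak.

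Of the H2-DM genes, which encode the peptide editor, H2-DMb2 held the IRF4 region with the highest enrichment of the set. It lay 0.138 kb before the annotated start of the gene. The start belongs to a transcript that is not coding, and the coding transcript begins 2.01 kb further on. IRF4 enrichment was 41.2, 111 and 126 in the day 1 libraries, and 53.0, 27.5 and 26.5 in those of day 3. The values of the days overlap, since day 1 replicate 1 lies below day 3 replicate 1. In rank the region stood within the top 14.4%, 0.793% and 0.459% of the day 1 lists and the top 7.36%, 36.3% and 30.2% of the day 3 lists. PU.1 was called there in day 1 replicate 1 (204) and day 3 replicate 2 (259.8) and in neither of the other libraries. The IRF4 and PU.1 positions were 19 bp apart, and the EICE at chr17:34280125-34280134 lay 15.5 bp from the region's centre.

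H2-DMb2 and its neighbour H2-DMb1 are close copies, which bears on how reads can be placed. Of the 32-base words in the 200 bp at the H2-DMb2 region, 93.5% occur once in the genome. The best match of its 300 bases within 20 kb of H2-DMb1, these bases themselves left out, covered 73 bases, of which 60 were identical (82.2%). That stretch also holds the genes H2-DMb2 and H2-DMa, and the place of the match was not recorded. The match is therefore not a measure of likeness to H2-DMb1. At the PU.1 region 0.363 kb into H2-DMb2, 55.6% of the words were unique, and PU.1 was called in the same pair of libraries as upstream (48.5 in day 1 replicate 1 and 81.4 in day 3 replicate 2). H2-DMb1 had no peak of either factor within 1 kb of its start, and H2-DMa had a PU.1 peak in day 3 replicate 1 alone (15.9), 0.364 kb into the gene beside a Y box. No source used here says how reads with several matches were treated, and the part of this in the calls was not tested.

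The remaining regions of the H2-DM genes were distal. A region 21.3 kb beyond the H2-DMb1 start had PU.1 at 98.4 and 143 on day 1 and 140 and 94.6 on day 3, with IRF4 in day 1 replicate 3 (35.2). The region with an ISRE at 26.96 kb had IRF4 in day 1 replicate 2 (61.2) and day 3 replicate 1 (23.0) and no PU.1. It lies 19.8 kb from the end of H2-DMb1, close to the limit of 20 kb. Just outside that limit, 20.4 to 20.5 kb from H2-DMb1, a region had IRF4 in all 6 libraries and PU.1 in all 4. PU.1 peaks 20.015 to 20.038 kb from H2-Oa (65.5 to 80.3 in 3 libraries) also fell just outside.

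The H2-DO genes, whose product restrains H2-DM, differed from each other. H2-Oa had PU.1 in all 4 libraries in its first intron, 0.388 kb from the start, at 118 and 201 on day 1 and 229 and 170 on day 3. Further on, 9.6 kb beyond the start, IRF4 was called in 5 of 6 libraries, at 23.9 and 47.1 on day 1 and 36.8, 32.5 and 39.8 on day 3. Day 1 replicate 3 had no peak there although its list was among the longest. PU.1 stood at 114 and 278 on day 1 and at 264 in day 3 replicate 2. This is the 1 region with IRF4 in 4 or more libraries that held no EICE. Among the regions nearest to it, H2-Ob had 3 with PU.1 in all 4 libraries, the highest of them in an intron 10.1 kb from the start (83.4 to 99.3), and its single nearby IRF4 peak is the one in H2-Ab1. Near the H2-Ob start, PU.1 was called 0.428 kb upstream in day 3 replicate 1 alone (15.2) and 0.963 kb into the gene in all 4 libraries (36.5 and 32.4, then 71.2 and 50.6).

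Cd74, the invariant chain, had PU.1 at all 12 of its regions and IRF4 at 5. IRF4 stood in all 6 libraries at 2 of them and in 4 at another. In the group lists Cd74 had 3 IRF4 peaks on day 1 and 2 on day 3, and 7 PU.1 peaks on each day. No IRF4 peak at Cd74 was without PU.1, while 9 of the 14 IRF4 regions of the class II cluster and 3 of the 5 at Ciita were. Of all 20030 IRF4 regions of the genome 13022 were without PU.1, so the cluster and Ciita lay near the genome in this respect.

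The region 11.7 kb upstream of Cd74 (chr18:60951620-60952053 in PU.1 day 1 replicate 1) had IRF4 at 29.7, 37.8 and 68.1 in the day 1 libraries and at 27.5, 17.1 and 29.8 in those of day 3. PU.1 there was 149.2 and 337 (day 1) and 108.7 and 221 (day 3). The lowest IRF4 value is that of day 3 replicate 2, and the day 1 and day 3 values overlap narrowly, at 29.7 and 29.8. The region at the Cd74 promoter, 0.098 kb upstream (chr18:60963098-60963529 in the same library), had IRF4 at 21.0, 47.1 and 63.6 on day 1 and at 25.2 in day 3 replicate 1, with no peak in day 3 replicates 2 and 3. In day 1 replicate 1 this was among the last peaks of the list (817 of 825), so it stood at the edge of detection there. PU.1 at the promoter had 116 and 211 on day 1 against 200.3 and 182 on day 3.

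Inside Cd74, 3.5 kb from the start, lay the PU.1 region with the highest enrichment of the set. In the day 1 libraries PU.1 reached 369.9 and 724, in the day 3 libraries 1019 and 814. Both day 3 values lie above both day 1 values, although the lists are not on a common scale. The region stood within the top 0.259% to 1.5% of the 4 lists. IRF4 was called there in day 1 replicate 3 (30.3) and day 3 replicate 3 (26.1), and 71% of the 32-base words at this region occur once in the genome. The fourth strong region lay 27.3 kb beyond the start in an intron of the neighbouring gene Tcof1. IRF4 was 30.4, 38.4 and 56.3 (day 1) and 42.6, 32.6 and 21.9 (day 3), with overlapping days, and PU.1 reached 603 and 684 (day 1) and 817 and 712 (day 3).

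**Figure D2:**
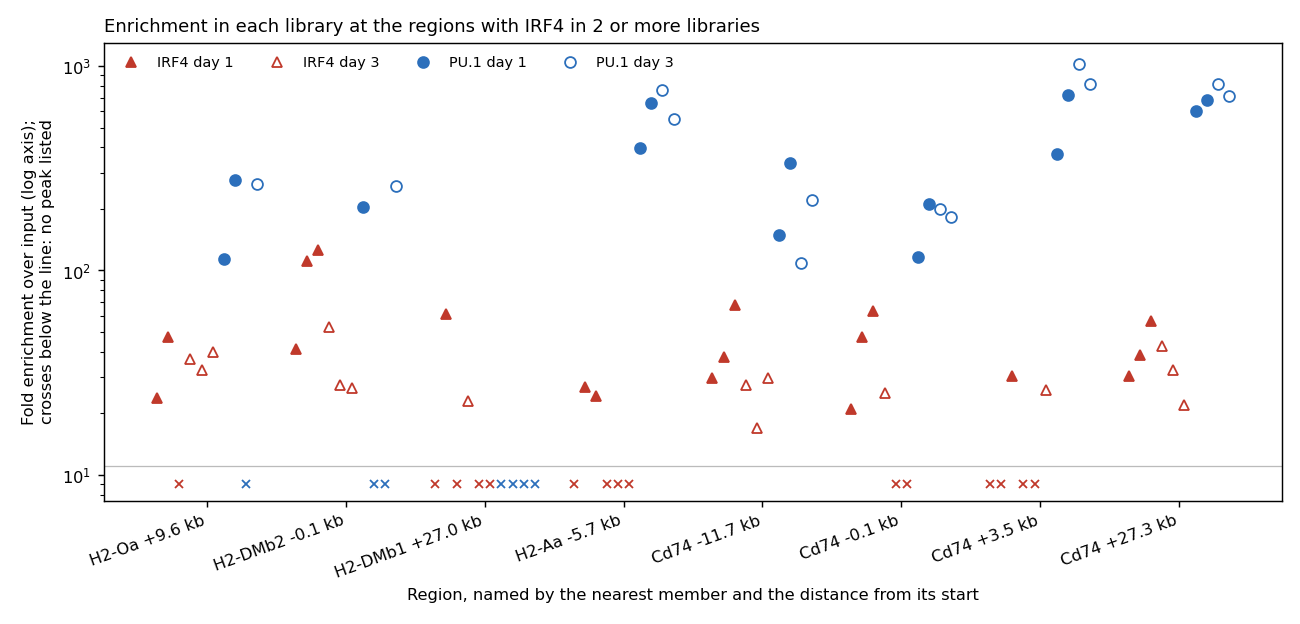
Fold enrichment over input (log axis) in each of the 10 libraries at the 8 regions with IRF4 in 2 or more libraries. Filled symbols are day 1, open symbols day 3, triangles IRF4, circles PU.1, and crosses below the line mark libraries without a listed peak. At H2-DMb2 the IRF4 values run from 26.5 to 126, and at 3.5 kb in Cd74 PU.1 runs from 369.9 to 1019.

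Ciita, the coactivator on which the other genes depend, had PU.1 in most of its regions and IRF4 in fewer. PU.1 was called in 16 of its 19 regions and in all 4 libraries in 7. The highest were 16.05 kb into the gene (271 and 520 on day 1, 547 and 339.5 on day 3) and 4.0 kb upstream (312 and 387 on day 1 and 397 in day 3 replicate 2, with no peak in day 3 replicate 1). IRF4 was called in 5 regions, each in 1 of 6 libraries and at 21.0 to 25.9. Over all regions of the genome PU.1 was in 81.5% and IRF4 in 28.4%, so Ciita lay near the genome in both. Of all IRF4 regions, 79% were called in 1 library.

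Ciita is transcribed from alternative promoters, and in the annotation transcripts begin at the gene start and again 8.03 to 8.16 kb and 9.64 kb into the gene. The EICE region at 8.0 kb lies 0.054 kb before the first of the inner starts. PU.1 stood there at 185 and 322 on day 1 and 226 and 247 on day 3, and the IRF4 peak came from day 3 replicate 1 (22.0), 45 bp from the PU.1 position. Near the outer start, 0.402 kb upstream, PU.1 was called in both day 1 libraries at 15.9 and 21.0 and in no day 3 library. These peaks were weak, at ranks 26003 of 27321 and 27393 of 38052 in lists that end at 15.0 and 15.1. The region 19.2 kb into the gene, with the EICE 4.5 bp from its centre, had PU.1 at 177 and 264.5 on day 1 and 180.5 and 233 on day 3 without any IRF4. A region 36.0 kb into the gene had PU.1 at 196 and 191 on day 1 and 309 and 186 on day 3 and IRF4 in day 1 replicate 2 (21.0).

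**Figure D3:**
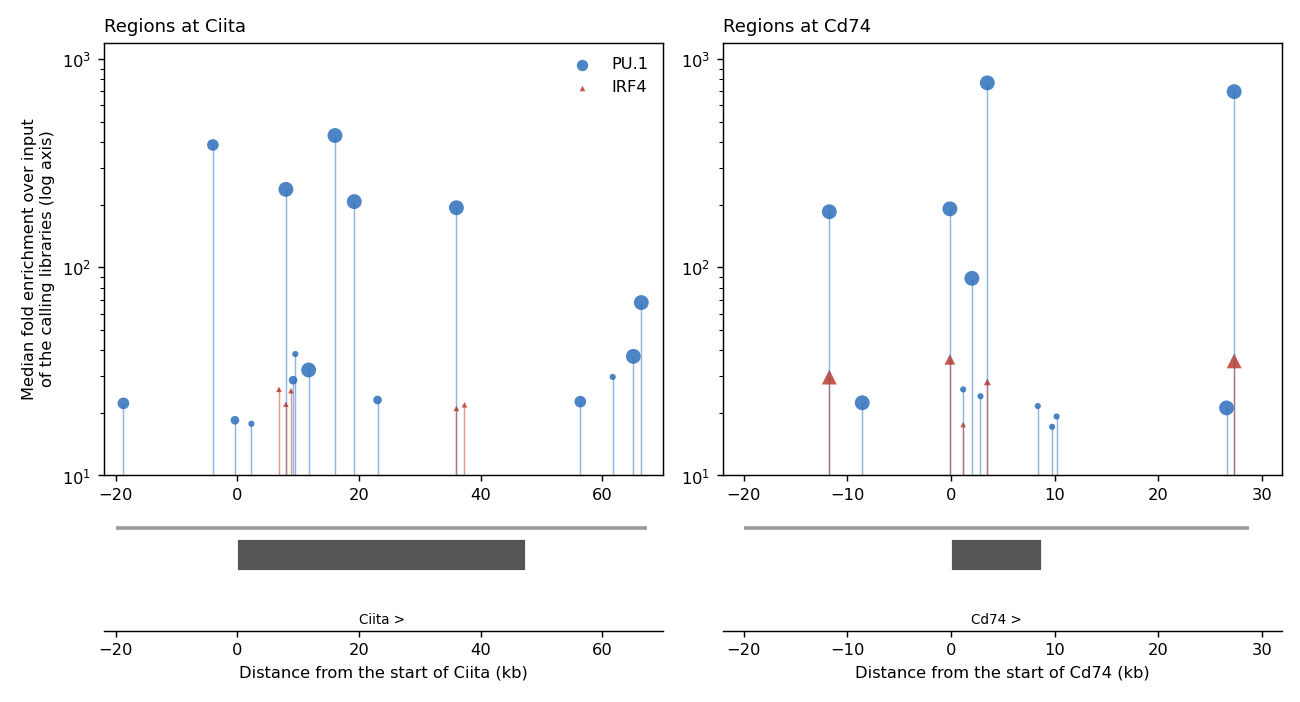
Regions at Ciita and Cd74 by distance from the gene start (kb), with the median fold enrichment of the calling libraries on a log axis. Circles are PU.1, triangles IRF4, larger markers stand for more libraries, boxes are the genes and grey lines the windows searched. The Ciita triangles are all small (1 library each), while Cd74 carries 2 large ones, at 11.7 kb upstream and 27.3 kb downstream of its start.

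PU.1 peaks that are strong in 3 libraries and missing from the fourth were mostly missing from 1 library. Over the genome, 630 PU.1 regions were called in 3 of 4 libraries with an enrichment of 100 or more in each of the 3, and 85.7% of them lacked day 3 replicate 1. At the class II genes there were 2 such regions, 9.6 kb beyond H2-Oa and 4.0 kb upstream of Ciita, and both lacked that library. Region numbers in the lists follow enrichment, and of the first 500 numbers 95.4% are listed in day 3 replicate 1 against 99.4% to 99.6% in the other PU.1 lists. In the IRF4 lists 72.6% (day 3 replicate 3) to 93% of the first 500 are listed. No source used here says what took the others out, so a missing peak at these places is not shown to be missing binding.

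In the 12 regions with both factors, the IRF4 and PU.1 positions were 5 to 218 bp apart with a median of 24.5 bp, and 10 of the 12 were within 60 bp (83.3%). The position of a factor was the middle one of its peaks, or the lower of the middle pair for an even number. The 218 bp rests on the lower of the IRF4 positions upstream of H2-Aa. Merging at less than 200 bp brings positions of a region close by construction, and over all 7008 regions with both the median was 34 bp and 70.3% were within 60 bp. PU.1 accompanied 12 of the 24 IRF4 regions, against 35% of all IRF4 regions. An EICE was found in 5 of these 12 regions (41.7%), against 22.5% of all regions with both factors.

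Of the IRF motifs searched, the EICE was found most often. It stood in 7 of the 24 IRF4 regions (29.2%) against 9.46% of all IRF4 regions, where the ISRE stood in 2 (8.33% against 6.95%) and the AICE in 1 (4.17% against 2.96%). The EICE was in 4 of the 5 called in 4 or more libraries against 32.4%. The AP-1 site (TGA, any base, TCA) stood in 2 of the 24 IRF4 regions (8.33% against 15.8%). In the 5 called in 4 or more libraries it stood in 0, against 24.3%. Of the 27 regions with PU.1 in all 4 libraries, 8 held an EICE (29.6%), against 15.2% over the genome. IRF4 was called in 4 of these 8 (50%), where 50.8% of such regions over the genome had IRF4, and in 4 of the 19 without an EICE (21.1%), where the genome had 21.7%. These shares are near those of the genome. For IRF4 in 4 or more libraries they were 3 of 8 with an EICE (37.5% against 16.2%) and 0 of 19 without (against 4.16%). A PU.1 site without an IRF element beside it in the pattern (GAGGAAGT) was found in 5 of the 81 PU.1 regions (6.17%), against 22.7% over the genome. No EICE match overlapped a match to any other motif. The members are few and share loci, so these shares describe the regions and were not tested.

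Of the 12 IRF4 regions without PU.1, 5 held an EICE, ISRE, AP-1 site (TGA, any base, TCA) or AICE (41.7%), against 23.5% of all such regions. The ISRE 26.96 kb beyond the H2-DMb1 start and the AICE 9.0 kb upstream of H2-Aa are the ones printed above. At the latter, IRF4 was called in day 1 replicate 2 alone (38.1). The AICE was also read in its other form, GAAATGA, any base, T, any base, A.

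Promoter boxes were looked for at the gene starts. In the 300 bp from 250 bp before to 50 bp after the gene start, 5 of the 10 genes held a Y box (H2-Aa, H2-Ab1, H2-Eb1, H2-Oa and H2-Ob) against 8.56% of 22225 promoters. An X box core was found in 2 (H2-Eb1 and H2-DMb1) against 2.2%, and an EICE in 2 (Cd74 and H2-DMb2) against 2.89%. The X box core of H2-Eb1 lay before its Y box and the start. That of H2-DMb1 lay 27 to 34 bp after the start, in a promoter without a Y box. The genes with a Y box had PU.1 within 100 bp of the box in 0 libraries (H2-Ab1 and H2-Ob) to 4 (H2-Eb1), with 1 at H2-Oa (19.7) and 2 at H2-Aa, and IRF4 in none. The genes with a promoter EICE had IRF4 there in 6 libraries (H2-DMb2) and 4 (Cd74). The H2-DMb2 window is that of the start that is not coding.

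The share of each library's list that fell at these genes did not differ between days beyond the spread of libraries. For IRF4 the numbers of peaks were 5, 12 and 14 on day 1 and 7, 5 and 6 on day 3. As shares of the lists these are 0.606%, 0.129% and 0.157% (day 1) and 0.251%, 0.355% and 0.107% (day 3). The largest share belongs to day 1 replicate 1, which has the shortest list, and the days overlap. The means were 0.297% ± 0.268 (SD, n = 3) and 0.238% ± 0.124 (SD, n = 3), a difference of -0.0592 percentage points (two-sided exact permutation test, p = 0.8). Leaving out day 1 replicate 1 made it 0.0952, and leaving out day 3 replicate 3 made it 0.0061. For PU.1 the numbers were 46 and 54 on day 1 and 54 and 50 on day 3, or 0.168% and 0.142% against 0.157% and 0.147% of the lists. The means were 0.155% ± 0.0187 (SD, n = 2) and 0.152% ± 0.00717 (SD, n = 2), a difference of -0.00328 points (exact permutation test, p = 1). It changed sign when day 1 replicate 1 (0.00995) or day 3 replicate 2 (0.00179) was left out.

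**Figure D4:**
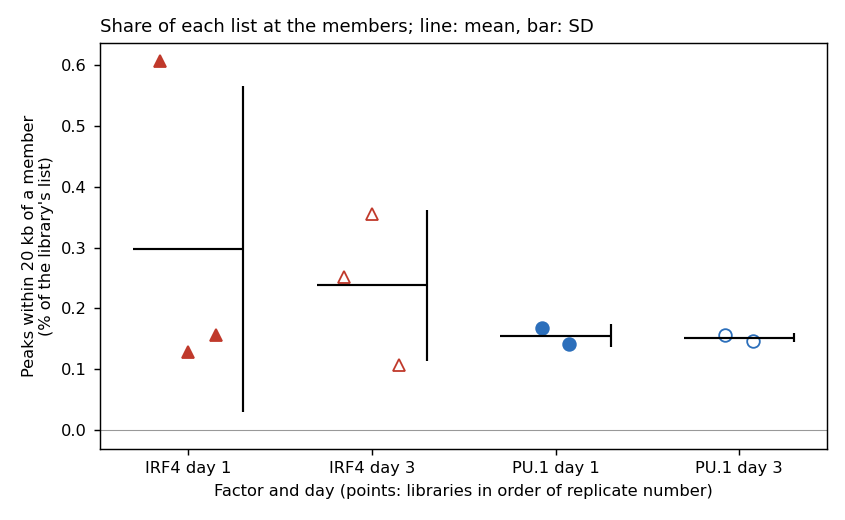
Share of each library's peaks within 20 kb of the 10 genes (percent of the list), with 1 point per library, the mean as a horizontal line and the SD as a vertical bar. IRF4 day 1 replicate 1 stands highest at 0.606%, and the other 9 libraries lie between 0.107% and 0.355%.

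The share of IRF4 peaks at these genes with a PU.1 peak of the same day less than 200 bp away was also compared between days. Counted on the PU.1 group lists, the day 1 libraries had 80%, 50% and 35.7% and the day 3 libraries 57.1%, 40% and 50%. Over all peaks of the same libraries the shares were 77.7%, 26.4% and 24.8% (day 1) and 56.2%, 66% and 41.3% (day 3). The means at the class II genes were 55.2% ± 22.6 (SD, n = 3) and 49% ± 8.61 (SD, n = 3), a difference of -6.19 percentage points (exact permutation test, p = 0.9) that became 6.19 without day 1 replicate 1. When a peak in any PU.1 library of the day counted, the difference was 19.1 points (exact permutation test, p = 0.4). The direction therefore depends on which PU.1 list is used. The 3 tests between days had adjusted p-values of 1 (Benjamini-Hochberg), and the smallest p they allow is 0.1 for 3 against 3 and 0.333 for 2 against 2 libraries.

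The list of other genes of the pathway held 19 genes: regulators of class II promoters, endosomal proteases, turnover ligases, the remaining class II chains and Cd74 partners. The numbers of genes given here were counted on the group lists. PU.1 lay within 20 kb of 17 on day 1 and 18 on day 3, against 52.2% and 54.4% of all protein-coding genes. Mif, a ligand of Cd74, had no PU.1 group-list peak on either day, and the ligase March8 none on day 1. In single libraries, Mif had 1 PU.1 peak in day 3 replicate 1 and March8 had 2 in day 1 replicate 2. IRF4 lay near 7 on day 1 (Rfx5, Rfxank, Nfyb, Ctss, Lgmn, H2-Ea and H2-Eb2) and near 5 on day 3 (Ctss, Ctsb, Lgmn, H2-Ea and H2-Eb2), against 10% and 8.46% of all genes.

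Among the proteases that cut the invariant chain or its cargo, Lgmn (asparaginyl endopeptidase) had an EICE region 14.0 kb upstream with IRF4 in all 6 libraries and PU.1 in all 4. A second Lgmn region, 13.3 kb into the gene, had IRF4 in 2 day 1 and 3 day 3 libraries and no PU.1. Ctss (cathepsin S), which removes the last part of the invariant chain in B cells, had an EICE region 5.4 kb upstream with IRF4 in 2 day 1 and 3 day 3 libraries. Ctsb (cathepsin B) had one 6.8 kb into the gene with IRF4 in 2 day 3 libraries and 0 of day 1.

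Among the regulators, Rfx5, a subunit of the RFX complex, had IRF4 at its start (0.2 kb upstream) in 2 day 1 libraries and 11.1 kb into the gene in 3, and in 0 libraries of day 3. Rfxank, another RFX subunit, had IRF4 19.6 kb upstream in 2 day 1 libraries and 1 of day 3. Nfyb, a subunit of NF-Y, had an EICE region 16.4 kb upstream with IRF4 in 2 day 1 libraries. The alpha chain H2-Ea, annotated as the pseudogene H2-Ea-ps, and H2-Eb2 shared 1 EICE region, 3.2 kb upstream of H2-Ea, with IRF4 in all 6 libraries and PU.1 in all 4. That region lies beyond the window of H2-Eb1.

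The genes whose peak numbers over the 10 libraries were most like those of Cd74 were Zswim6, with a summed difference of 4 peaks, and Dtx4 and Gnptab, with 7 each. These genes are 166, 35.7 and 68.2 kb long and Cd74 is 8.8 kb, so their peaks were counted over wider windows. Cd74 had 3, 3 and 4 IRF4 peaks on day 1, 3, 2 and 4 on day 3, and 7, 8, 10 and 8 PU.1 peaks. Zswim6 had 3, 3 and 3 IRF4 peaks on day 1, 4, 2 and 4 on day 3, and 8, 9, 10 and 8 PU.1 peaks.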

How the data were processed

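The design text credits peak calling to QuEST, with enrichment taken by the authors over the input, and both it and the submitters' processing notes give the build mm9. No source used here gives the aligner, versions, thresholds or read counts, so the depth behind a peak is unknown and no interval is given for single peaks. For each peak a deposited list gives its interval, position and highest enrichment, the authors' linear fold (ratio) over input. Positions are given unchanged, and their counting from 0 or 1 is not stated. Motif coordinates count from 1.

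Libraries were grouped by the sample descriptions, and the replicate numbers are theirs. Nothing in the labels ties replicates to separate animals or cultures; a p-value therefore measures the spread among these libraries only, and that spread may be technical. Genes and transcripts come from GENCODE M1 on mm9, 1 record for each of 22238 protein-coding symbols. Values of libraries were compared with two-sided exact permutation tests. Scripts used Python 3.11.15, pandas 2.3.3, numpy 2.4.6, pysam 0.24.0 and Biopython 1.88, and were tested on simulated data. All 10 genes are named. Regions are described in full where 4 or more IRF4 libraries called them or where they lie within 1 kb of a gene start. For a gene with neither, the region called in most libraries was taken. Further regions were chosen after their values were seen. Sequences were printed for motif matches by the number of libraries, and for the H2-Eb1 promoter. For the EICE this took 4 PU.1 or at least 4 IRF4 libraries. An ISRE needed at least 2 IRF4 libraries and no PU.1, and an AICE needed IRF4. No sequence is shown for Cd74. All pathway genes with an IRF4 group-list peak are named. The genes, lists and tests were chosen with earlier results of these data known. Alternatives were windows of 5 and 50 kb, the stronger 50% of each list, equal numbers of top peaks, other distances to a partner peak, plain counts, each replicate left out and a replicate block.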

Additional observations from a re-analysis of the deposited data

How the results depend on the processing

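With 2 or 3 libraries per group no test between days could reach 0.05, and the lists give no read counts. For the IRF4 share, leaving out 1 library gave differences of -0.143 to 0.0952 points, and the other alternatives kept its direction. For the PU.1 share the range was -0.0165 to 0.00995, and the direction turned with a 5 kb window (0.00227) and with plain numbers of peaks (2). For PU.1 at IRF4 peaks, leaving out 1 library gave -16 to 6.19 points (6.19 without IRF4 day 1 replicate 1), and the direction turned with a 50 kb window (2.35) and with any PU.1 library (19.1). The number of genes near an IRF4 group-list peak fell on day 1 from 7 to 3 at 5 kb, to 3 in the stronger 50% and to 4 without replicate 2 (4 to 6 over the libraries left out). On day 3 it fell from 5 to 2 at 5 kb and was 5 with each library left out and in the stronger 50%. The PU.1 counts stayed at 8 to 10 under each alternative run.

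Replicate numbers occur on both days. Deviations of the calls of same-numbered libraries from their group means correlated at -0.267, 0.077 and -0.102 for IRF4 and at -0.00297 for PU.1. IRF4 day 1 replicate 1 correlated best with day 3 replicate 3 (0.435). These values cannot decide whether the numbers pair the libraries. The IRF4 lists differ in length (825 to 9326 peaks), and with 2 PU.1 libraries per day all PU.1 correlations have the same size by construction. With a replicate block the differences were those of the unpaired tests (-0.0592, -0.00328 and -6.19 points), with exact sign-flip p of 0.75, 1 and 0.75, and no call changed.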
